A study of Mus musculus with 2 samples.

Results

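The 10 genes described here are Lin28b, Lin28a, Hmga1, Hmga2, Igf2bp3, Igf2bp1, Igf2bp2, Trim71, Arid3a and Dis3l2. They were matched by symbol through a GENCODE mouse annotation, and all 10 were found among the 43346 ENSEMBL genes of the 2 deposited gene tables. RNA longer than 200 nucleotides with a poly(A) tail was sequenced from embryonic livers of the C57BL/6J strain, taken on day 14. The series has 1 group of 2 libraries, replicate 2 and replicate 1, each from pooled littermates of both sexes and each read in stranded pairs. No allele, treatment or second stage was part of the design, so the profile gives levels, ratios between genes of 1 family, transcript shares and the spread between the libraries. The donor entry is the same for both, and separate litters are not stated, so p-values between them measure only the spread between these libraries, which may be technical. In a bulk tissue, fewer cells of a type and less RNA per cell cannot be told apart.

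The members belong to a circuit that is known for its activity in embryonic and fetal tissue. LIN28A and LIN28B bind precursors of the microRNA let-7 and block their maturation, and DIS3L2 is the exonuclease that degrades precursors that have received a tail of uridines. Mature let-7 represses mRNAs that carry a match to its seed, among them those of the LIN28 proteins themselves, of the DNA-bending AT-hook proteins HMGA1 and HMGA2, of the mRNA-binding IGF2BP proteins, of the ubiquitin ligase TRIM71 and of the transcription factor ARID3A. In fetal blood formation LIN28B is known for holding stem cells and B-cell precursors in their fetal form, and the IGF2BP proteins are named for their binding to the mRNA of the growth factor Igf2, which fetal liver makes in quantity.

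The libraries held 154601605 expected counts (replicate 2) and 100477392 expected counts (replicate 1). Markers of the labelled tissue were present, with all 10 fetal hepatocyte markers and all 10 erythroid markers at 1 TPM (a transcript level per length, scaled to the same total in each library) or more in both. The 12 skeletal muscle markers together had 4.32 TPM (replicate 2) and 89.4 TPM (replicate 1), and all 12 were at least 2-fold lower in replicate 2 past the threshold of the test between libraries described below. The 9 stellate and mesenchymal markers together had 123 TPM (replicate 2) and 174 TPM (replicate 1). Lin28a and Trim71 are also made by pluripotent and germ cells, whose 9 markers together had 0.27 TPM (replicate 2) and 0.28 TPM (replicate 1), and 0 of 9 reached 1 TPM. Of the defining markers among them, Pou5f1 had 0 counts and 1 count, and Nanog had 3 counts in each library, while the germ cell gene Ddx4 had 110 and 70 counts, or 0.23 and 0.21 TPM of those sums. Throughout, ± is the SD over the 2 libraries (n = 2), intervals cover counting error only, and positions are on GRCm38 unless mm9 is named.

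The sequences that tie the members together are the let-7 microRNAs and their matches in the members' 3′ UTRs. Mature let-7 is shorter than the RNA that was sequenced, so its level was not measured. In RefSeq (GRCm38.p6), 10 of 11 mature names of the let-7 and miR-98 family share bases 2 to 8, the seed, which is shown here in capitals for 3 of them.
let-7a-5p: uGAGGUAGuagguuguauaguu
let-7g-5p: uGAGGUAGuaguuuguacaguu
miR-98-5p: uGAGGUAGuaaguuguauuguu
The DNA letters complementary to this seed, CTACCTC, were searched on the transcript strand in the 3′ UTR of the complete coding transcript with the highest TPM of each gene, as GENCODE M21 annotates it. The 7 letters were present in 9 of 10 members, and in 7.32% of the 21490 protein-coding genes scanned the same way. The 8-base form CTACCTCA, with an A behind the match, was present in 8 members and in 2.50% of those genes. Most members are known let-7 targets, as given above, so shares above the background follow from the choice of genes and test nothing. The same holds for the comparisons by length below. The median 3′ UTR was 2876 bases in members and 661 bases in all genes scanned, so each member is set below against 3′ UTRs of 0.8 to 1.25 times its own length.

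For each gene 1 match is printed in capitals to show what the members share, with the 8-base form CTACCTCA preferred and the one nearest the stop codon taken. Each line spans 30 bases on the transcript strand.
Lin28b, chr10:45381022-45381051, minus strand: tcccttcacccgggcgggaagtCTACCTCA
Lin28a, chr4:134005189-134005218, minus strand: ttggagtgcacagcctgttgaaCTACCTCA
Hmga1, chr17:27563270-27563299, plus strand: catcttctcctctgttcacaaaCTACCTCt
Hmga2, chr10:120364224-120364253, minus strand: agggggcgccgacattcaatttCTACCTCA
Igf2bp3, chr6:49086787-49086816, minus strand: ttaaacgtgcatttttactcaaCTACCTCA
Igf2bp1, chr11:95961778-95961807, minus strand: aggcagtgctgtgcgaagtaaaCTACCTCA
Igf2bp2, chr16:22059473-22059502, minus strand: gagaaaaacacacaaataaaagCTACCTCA
Trim71, chr9:114512472-114512501, minus strand: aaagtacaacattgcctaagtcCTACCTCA
Arid3a, chr10:79953888-79953917, plus strand: cacatgcaaggcaagtttctttCTACCTCA

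Lin28b, Hmga2, Igf2bp1 and Trim71 each held 4 matches, and together the members held 23, of which 14 had the 8-base form. A match of 7 letters or more was present in 24.8% of 3′ UTRs of about the length of Lin28b and in 16.0% of those of about the length of Hmga2. At least 4 matches were present in 0.199% of the 3′ UTRs of about the length of Lin28b, 0.0532% of those like Hmga2, 0% of those like Igf2bp1 and 0.166% of those like Trim71. In Trim71 all 4 matches were of the 8-base form, and the last 2 lay within 30 bases of each other, at bases 3591 and 3617 of a 3′ UTR of 5512 bases. The match of Hmga2 at base 21 and that of Lin28b at base 36 lay directly behind the stop codon.

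Lin28a and Arid3a held 2 matches each, which was reached by 2.19% and 2.32% of 3′ UTRs of their lengths. The later match of Arid3a, at 79954715 to 79954744, lies beyond the annotated end (79954703) of another coding transcript of the gene. That transcript took 36.6% of Arid3a TPM in replicate 2 and 40.0% in replicate 1. Igf2bp3, Igf2bp2 and Hmga1 held 1 match each, which was reached by 13.4%, 12.3% and 8.12% of 3′ UTRs of their lengths. Dis3l2, whose annotated 3′ UTR of 347 bases is the shortest of the 10, held none, and 2.94% of 3′ UTRs of its length held 1 or more. A match describes letters in an annotated sequence and does not say whether let-7 acted there in these livers.

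**Figure D1:**
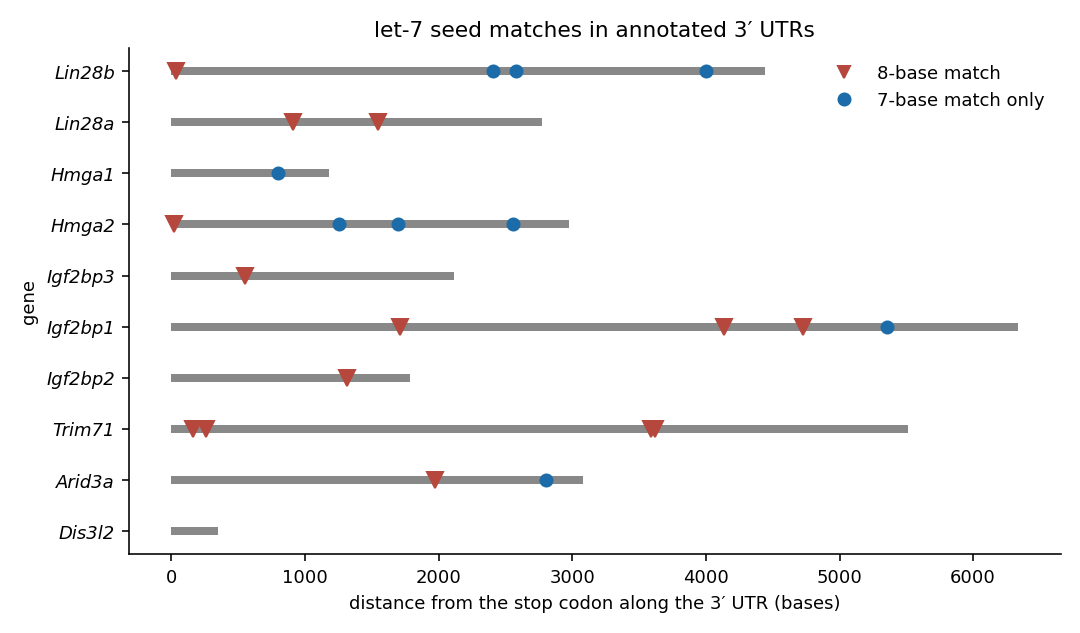
Each grey bar is the annotated 3′ UTR of 1 member, drawn to scale from the stop codon in bases, and each symbol is a match to the let-7 seed (triangles for the 8-base form, circles for 7 bases only). Trim71 has 4 triangles, Lin28b and Hmga2 have 1 triangle close to the stop codon and 3 circles each, and Dis3l2 has no symbol.

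Lin28b was the main Lin28 gene of the liver. It had 6.16 TPM in replicate 2 and 5.30 TPM in replicate 1, from 5737 and 3405 expected counts (ENSMUSG00000063804.7, chromosome 10, 45376620 to 45486395). Lin28a had 1.37 TPM in replicate 2 and 1.05 TPM in replicate 1, from 535 and 301 expected counts (ENSMUSG00000050966.5, chromosome 4, 134003330 to 134018841). The libraries did not overlap between these genes, and Lin28b gave 82.6 ± 1.17% of their summed TPM. The log2 ratio of Lin28b over Lin28a was 2.25 ± 0.12, a 4.76-fold difference in level. The Lin28a level in this ratio includes short transcripts with few counts, described below. The full-length Lin28a transcript alone had 0.88 TPM in replicate 2 and 0.72 TPM in replicate 1, and against it Lin28b stood higher still. With 2 libraries no exact test can reach 0.05, so ratios between genes carry no p. In the older mm9 tables, whose 2 replicates are not named, Lin28b had 2.46 and 3.10 RPKM and Lin28a 0.175 and 0.197 RPKM, a log2 ratio of 3.89.

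Junction reads placed Lin28b and Lin28a in the same order. The 4 introns of the Lin28b coding transcript carried 70 to 367 reads over both replicates, and the 3 introns of Lin28a carried 9 to 31. In Lin28b the reads were fewest over the intron nearest the 5′ end and most over the last. The acceptor of its second exon was joined from more than 1 upstream exon. The first exon of the coding transcript gave 70 of 167 reads (41.9%, exact interval 34.3 to 49.8%). An exon further upstream, by a junction that is also annotated, gave 87 reads (52.1%, exact interval 44.2 to 59.9%). That upstream exon was in turn joined to a still more distant site by 98 reads across an intron of 9830 bases (mm9 chromosome 10, 45196203 to 45206032) that the mm9 annotation used here does not list. Of the reads leaving the second exon, 168 of 211 went to the third exon of the coding transcript and 43 (20.4%, exact interval 15.2 to 26.5%) to an annotated exon closer by.

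The mm10 tables list 1 transcript for Lin28b, which encodes 271 residues, so they give it a share of 100% whatever its start. Lin28a has 4 listed transcripts. The full-length one, of 3505 bases and 209 residues, took 66.4 ± 3.07% of the gene's TPM and 97.2 ± 0.52% of its expected counts. A transcript of 394 bases held 28.5% of the gene's TPM in replicate 2 and 31.4% in replicate 1, from only 12.3 and 7.22 expected counts, and one of 478 bases took 7.30% in replicate 2 from 4.48 counts and none in replicate 1. At Lin28a 12 of 28 reads into the acceptor at mm9 position 133564011 came from a site that is not annotated (42.9%, exact interval 24.5 to 62.8%).

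Hmga1 was by far the highest of the 10 members and stood 429th of 21474 protein-coding genes by mean TPM. It had 150.0 TPM in replicate 2 and 147.8 TPM in replicate 1, from 36112 and 24884 expected counts (ENSMUSG00000046711.11, chromosome 17, 27556497 to 27563674). Hmga2 had 5.49 TPM in replicate 2 and 4.94 TPM in replicate 1, from 3441 and 2139 expected counts (ENSMUSG00000056758.10, chromosome 10, 120361275 to 120476469). The log2 ratio of Hmga1 over Hmga2 was 4.84 ± 0.09 (28.6-fold), and Hmga1 gave 96.6 ± 0.21% of their summed TPM. HMGA1 is the AT-hook protein made in most dividing cells, whereas HMGA2 is known as the one more restricted to embryonic tissue and fetal stem cells. The size of this ratio depended on the table, while Hmga1 was higher in each: it was 3.51 in mm9 RPKM and 2.74 in reads per annotated mm9 intron.

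Hmga1 has a near-identical intronless copy, Hmga1b, on chromosome 11 (120762794 to 120764419), and the split of reads between them is uncertain. The copy matched the Hmga1 transcript at 1592 of 1626 aligned bases (97.9%). Hmga1b had 3.46 TPM in replicate 2 and 2.69 TPM in replicate 1 in the mm10 tables, where the posterior SD of the count was 37.6 in replicate 2 and 25.7 in replicate 1 for both the gene and the copy. In the mm9 table Hmga1 had 21.1 and 29.4 RPKM and Hmga1b 6.36 and 7.29 RPKM, so the copy stood closer to the gene there.

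Transcripts of Hmga1 differ in whether they keep 33 coding bases at the end of an exon, shown in capitals below behind the 12 bases that both forms share. This choice separates the longer from the shorter HMGA1 protein form, and the stretch begins with the GT of a splice donor.
Hmga1 (GRCm38, chr17:27559659-27559703, plus strand): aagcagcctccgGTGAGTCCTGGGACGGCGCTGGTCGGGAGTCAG
In the mm10 tables the transcripts without this stretch that encode 96 residues took 60.4% of Hmga1 TPM in replicate 2 and 58.7% in replicate 1. The transcript that keeps it and encodes 106 residues took 32.2% and 35.5%, and the 2 that encode 107 residues took 7.20% and 5.68%, in replicate 2 and replicate 1. The 106-residue form is 1 residue shorter than the 107-residue forms. Residues are those of GENCODE M21, while TPM was estimated on GENCODE M4. The transcript of 106 residues has 1595 bases in M21 and 1635 as deposited, and those of 107 residues differ in length too. The residue numbers may therefore not hold for the models that were quantified. At a later donor, 92 of 253 junction reads used an acceptor 3 bases further on (36.4%, exact interval 30.4 to 42.6%). The mm9 annotation used here does not list that further site, and whether it accounts for the missing residue was not tested.

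The junction table gave the longer form a smaller share than the transcript tables. The donor in front of the 33 bases carried 716 and 1112 reads in the 2 unnamed replicates and the donor behind them 26 and 53, so that 4.14% of 1907 reads kept the stretch (exact interval 3.29 to 5.14%). A gap of 33 bases was also listed inside the intronless copy Hmga1b, at mm9 chromosome 11, 120624305 to 120624337, with 1539 and 2088 reads. The copy holds the 33 bases once and holds the 40 bases around their start as in the longer form, but not the 40 bases around the joined ends of the shorter form. Reads that lack the stretch were thus listed at both loci. Reads that keep the stretch could match the intronless copy without a gap and would then not be listed as junction reads. How many did so was not tested, and the share of each form is uncertain in either direction.

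Hmga2 was led by 1 coding transcript of 108 residues with 96.2 ± 0.53% of its TPM. Its junction reads were unequal along the gene. The first 2 introns carried 83 and 150 reads and 72 and 109 reads in the unnamed replicates, and the 2 later ones carried 9 and 15 reads and 15 and 24 reads. Reads per intron were 6.57 times as many over the first pair as over the later pair, against 7.77 times in Hmga1 (2822 reads over its first 2 introns and 363 over its later 2, both replicates together). Reads of Hmga1 could also be placed on its intronless copy without a junction. The ratios of Hmga1 and Hmga2 may therefore not compare, which was not tested. Intron 3 of Hmga2 spans 87963 bases. An antisense gene, 1700006J14Rik, lies over the 3′ part of Hmga2 (120364157 to 120384336). It had 3.44 TPM in replicate 2 and 3.69 TPM in replicate 1, and junctions on the strand opposite Hmga2 carried 236 and 292 reads, against 185 and 304 over the annotated introns of Hmga2 itself. The libraries were stranded per the labels, and whether counting used the strand is not given in the sources used here.

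**Figure D2:**
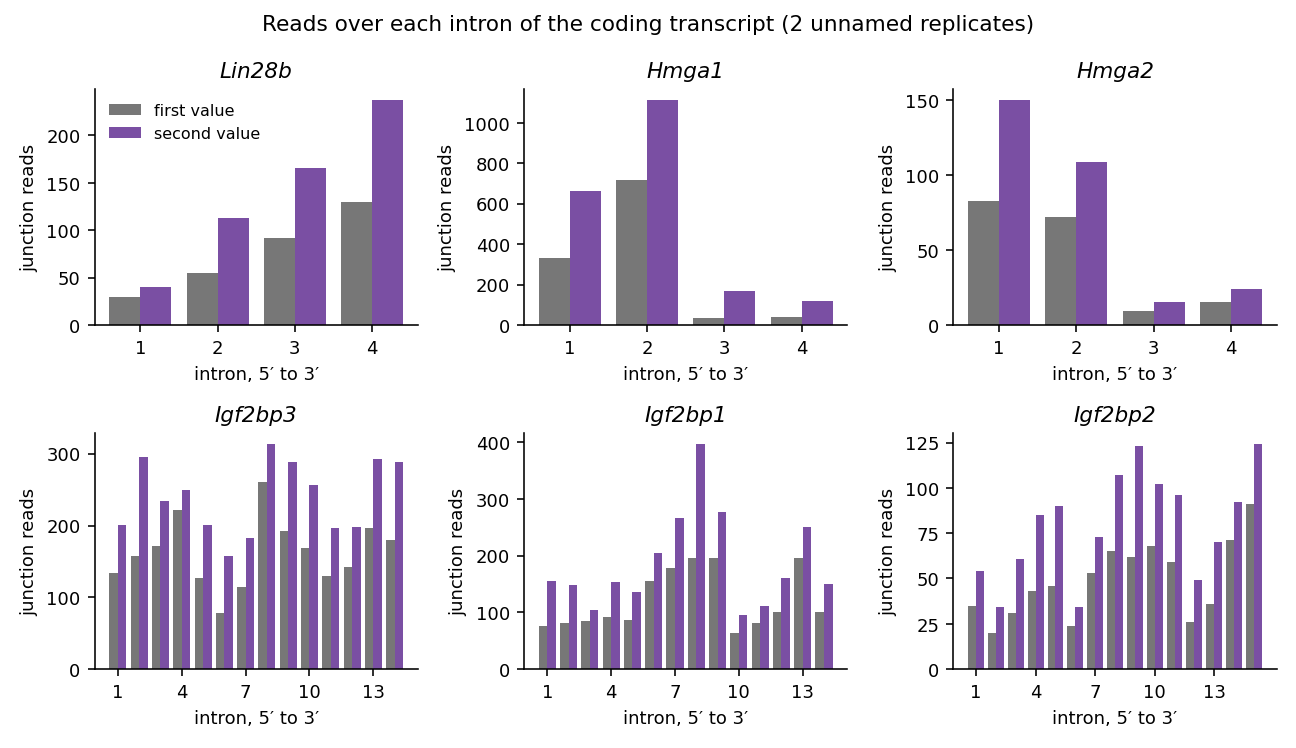
Bars are reads over each intron of the coding transcript, numbered 5′ to 3′, in the mm9 junction table, with the 2 unnamed replicates side by side and the y axis scaled to each gene. Hmga2 falls to 24 and 39 reads over both replicates at its last 2 introns, Lin28b climbs to 367 reads at its last, and Igf2bp3 is covered by 236 to 574 reads at every intron.

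All 3 Igf2bp genes were present, in the order Igf2bp3, Igf2bp1 and Igf2bp2. Igf2bp3 had 7.84 TPM in replicate 2 and 7.30 TPM in replicate 1, from 5809 and 3735 expected counts (ENSMUSG00000029814.8, chromosome 6, 49085223 to 49214957). Igf2bp1 had 4.62 TPM in replicate 2 and 4.56 TPM in replicate 1, from 6452 and 4114 expected counts (ENSMUSG00000013415.5, chromosome 11, 95957163 to 96005940). Igf2bp2 had 3.58 TPM in replicate 2 and 3.44 TPM in replicate 1, from 1918 and 1331 expected counts (ENSMUSG00000033581.12, chromosome 16, 22059009 to 22163299). Both libraries gave the same order with no overlap, and the shares of the summed family TPM were 48.3 ± 0.82%, 29.3 ± 0.71% and 22.4 ± 0.12%.

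The log2 ratio of Igf2bp3 over Igf2bp1 was 0.72 ± 0.06 and that of Igf2bp3 over Igf2bp2 was 1.11 ± 0.03. The order of Igf2bp3 and Igf2bp1 turned round in the mm9 gene table, where Igf2bp3 had 1.34 and 1.76 RPKM and Igf2bp1 1.48 and 2.02 RPKM, a log2 ratio of -0.17. Reads per annotated mm9 intron gave 0.67 for Igf2bp3 over Igf2bp1, close to the TPM value, and 2.00 for Igf2bp3 over Igf2bp2. Igf2bp3 lies opposite Malsu1, which had 22.0 TPM in replicate 2 and 24.8 TPM in replicate 1 and overlaps its 3′ end.

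Igf2bp3 has 1 listed transcript, of 579 residues, and all 14 of its introns carried reads. Igf2bp1 was led by its coding transcript of 577 residues with 91.8 ± 4.54% of TPM and 99.5 ± 0.22% of expected counts. A short Igf2bp1 transcript of 576 bases without annotated coding sequence was listed at 0 in replicate 2 and took 9.65% of the gene's TPM in replicate 1, from 19.7 counts. In Igf2bp1, 69 of 229 reads leaving 1 donor went to an acceptor 3 bases further on that is not annotated (30.1%, exact interval 24.3 to 36.5%).

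Igf2bp2 differed from the other members in that its highest transcript was not a coding one. A transcript annotated as holding a retained intron took 67.3% of its TPM in replicate 2 and 65.4% in replicate 1, from 1318 and 851 expected counts. The coding transcript of 592 residues took 22.6% in replicate 2 and 25.9% in replicate 1, from 534 and 404 expected counts. Its own level was therefore 0.81 TPM in replicate 2 and 0.89 TPM in replicate 1, against 4.39 and 4.04 TPM for the coding transcript of Igf2bp1. The posterior SD of those Igf2bp2 counts was 42.9 in replicate 2 and 41.3 in replicate 1.

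The retained-intron model of Igf2bp2 starts ahead of the third exon of the coding transcript (22059074 to 22089118) and so lacks the first 2 introns. Those 2 introns carried 35 and 54 reads and 20 and 34 reads in the unnamed replicates, or 71.5 reads per intron over both. The 13 later introns averaged 137.0 reads, so the ratio of early to later introns was 0.522. The same ratio was 7.77 in Hmga1, 6.57 in Hmga2, 0.977 in Igf2bp3, 0.723 in Igf2bp1, 0.707 in Arid3a, 0.634 in Dis3l2 and 0.381 in Lin28b. That of Hmga1 is limited by its intronless copy, as given above.

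**Figure D3:**
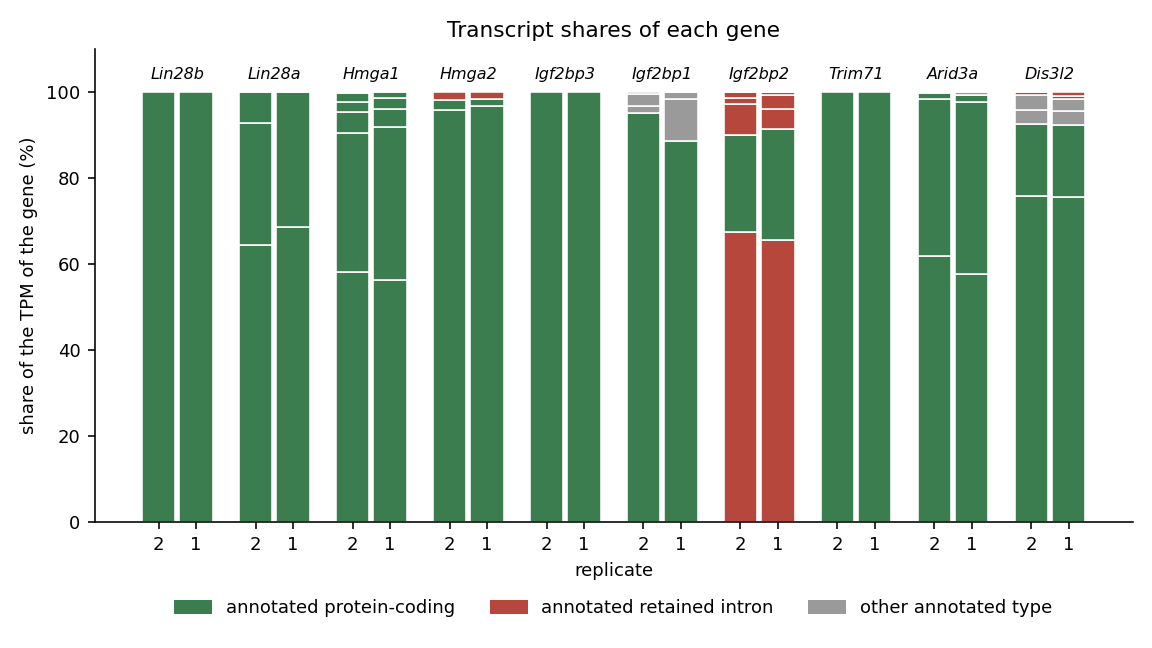
Each stacked bar splits the TPM of 1 member into its listed transcripts, as a percentage, with replicate 2 left of replicate 1, and colours give the annotated type. Igf2bp2 is the only bar pair led by a retained-intron transcript (67.3% and 65.4%), Hmga1 and Arid3a divide between coding transcripts, and Lin28b, Igf2bp3 and Trim71 have 1 listed transcript each.

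Trim71, the let-7 target that acts as an RNA-binding ubiquitin ligase in early embryos, was the lowest member by gene TPM. It had 0.79 TPM in replicate 2 and 0.76 TPM in replicate 1, from 1285 and 858 expected counts (ENSMUSG00000079259.2, chromosome 9, 114507133 to 114564369). It was the one member under 1 TPM in both libraries, and its 3 introns carried 11, 27 and 27 reads, so it was spliced RNA at a low level. Its counts came from a listed transcript of 9332 bases, against 3505 bases for the main one of Lin28a, and its gene TPM was below that of Lin28a. The main Lin28a transcript alone had 0.88 TPM in replicate 2 and 0.72 TPM in replicate 1, so Trim71 was above it in replicate 1. Reads per annotated mm9 intron were 21.7 for Trim71 and 18.7 for Lin28a.

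Arid3a, a transcription factor named for its AT-rich interaction domain and known in B cells, had 5.41 TPM in replicate 2 and 4.48 TPM in replicate 1, from 4758 and 2691 expected counts (ENSMUSG00000019564.8, chromosome 10, 79927043 to 79955018). The 10 B lymphoid markers together had 8.65 TPM (replicate 2) and 6.18 TPM (replicate 1), and 3 of them reached 1 TPM in both. 2 coding transcripts that encode 601 residues each and differ in their first exon and in their 3′ end shared most of Arid3a. They held 61.7% and 36.6% of its TPM in replicate 2, and 57.5% and 40.0% in replicate 1. Junction reads from the 2 first exons divided in nearly the same way, with 174 and 116 of 290 reads (60.0%, exact interval 54.1 to 65.7%, for the first). Of the relatives, Arid3b had 7.49 TPM in replicate 2 and 6.13 TPM in replicate 1, above Arid3a in each library, and Arid3c had 0 counts in both, where 3 counts per library allow up to 0.0167 TPM and 0.0241 TPM.

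Dis3l2 had 5.73 TPM in replicate 2 and 5.26 TPM in replicate 1, from 2900 and 1835 expected counts (ENSMUSG00000053333.11, chromosome 1, 86703808 to 87050095). Its relative Dis3l, the cytoplasmic exosome nuclease, had 5.43 and 4.90 TPM in replicate 2 and replicate 1, so each was below Dis3l2 of the same library by less than the libraries differed. The main coding transcript of Dis3l2, of 870 residues, took 75.7 ± 0.06% of TPM, and one with an extra exon of 42 bases, of 884 residues, took 16.8% in replicate 2 and 16.6% in replicate 1. At the acceptor behind that exon 22 of 175 junction reads came from it (12.6%, exact interval 8.05 to 18.4%) and 153 skipped it. Gm6136, an annotated pseudogene on the opposite strand inside an intron of Dis3l2, had 28.8 TPM in replicate 2 and 17.4 TPM in replicate 1, above the gene that surrounds it.

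Over the whole group, 9 of 10 members reached 1 TPM in both libraries, against 50.6% of protein-coding genes, and all 10 reached 0.5 TPM, against 55.3%. At 5 TPM the count was 4 of 10, against 33.2% of protein-coding genes, with Hmga1, Igf2bp3, Lin28b and Dis3l2 above that level in both libraries. By mean TPM the order was Hmga1, Igf2bp3, Lin28b, Dis3l2, Hmga2, Arid3a, Igf2bp1, Igf2bp2, Lin28a and Trim71. The ranges over the libraries of Lin28b, Dis3l2, Hmga2 and Arid3a overlapped with one another, and that of Arid3a also overlapped with Igf2bp1. Within each library, however, these 4 members stood in the same order, and the order of Arid3a and Igf2bp1 differed between the libraries. Hmga1, Igf2bp3, Igf2bp2, Lin28a and Trim71 overlapped with no other member. Adult globin mRNA takes much of the TPM in this tissue. With TPM rescaled over genes other than the adult globins and mitochondrially encoded genes, Lin28b stood at 13.0 in replicate 2 and 12.2 in replicate 1, Trim71 at 1.67 and 1.74, and all 10 members were over 1.

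**Figure D4:**
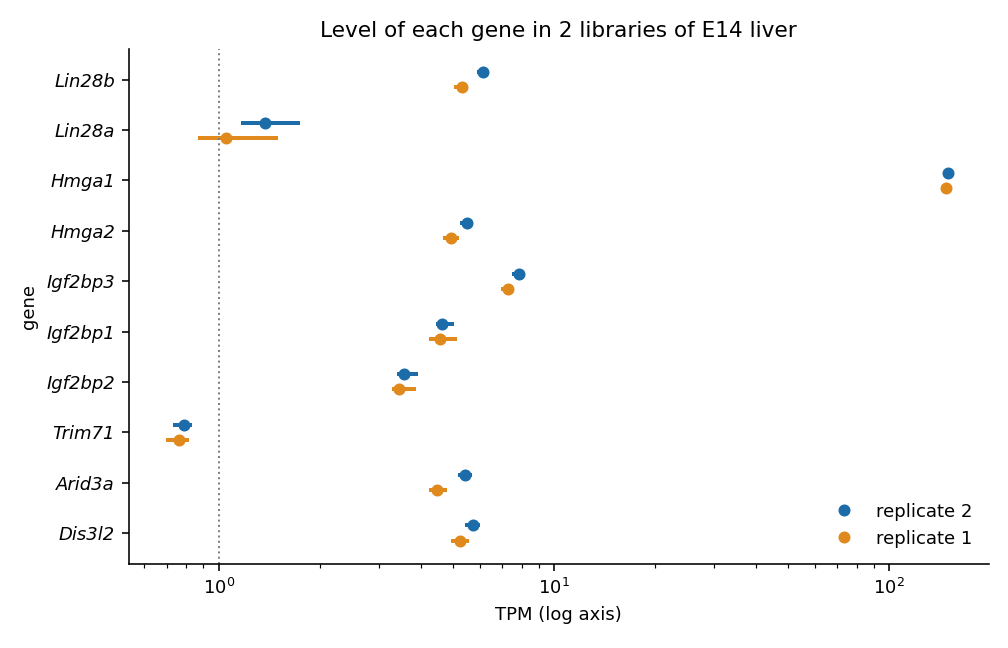
Points are the TPM of each member in replicate 2 (upper, blue) and replicate 1 (lower, orange) on a log axis, lines are the deposited credibility bounds of TPM, whose level the files do not state, and the dotted line is 1 TPM. Hmga1 lies near 149 TPM, Lin28a between 1.05 and 1.37 TPM, Trim71 below the line, and the other 7 members between 3.44 and 7.84 TPM.

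The members differed little between the libraries. Every member had a higher TPM in replicate 2 as deposited, but the median log2 ratio of TPM over genes with at least 100 counts was 0.15, so differences are given on counts with TMM scaling, which removes that shift. The test was an exact binomial test (two-sided) of each gene's rounded count given the sum over both libraries, which compares these 2 libraries beyond counting error and not 2 conditions. It called 4 of 10 members at an adjusted p of 0.05 (Benjamini-Hochberg over 18572 genes), and it called 40.3% of all genes tested, so the members' share was near the background. Arid3a was higher in replicate 2 (log2 ratio 0.15, counting interval 0.08 to 0.22, exact binomial test, adjusted p = 0.000123) and so was Lin28b (0.08, interval 0.02 to 0.14, adjusted p = 0.0363 by the same exact test).

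Hmga1 was lower in replicate 2 (log2 ratio -0.14, counting interval -0.16 to -0.12, exact binomial test, adjusted p = 1.07e-29), and Igf2bp2 likewise (-0.15, interval -0.25 to -0.05, adjusted p = 0.0127 by the same exact test). With library totals in place of TMM, Igf2bp2 was no longer past the threshold (adjusted p = 0.137 by the same exact test). The remaining members had log2 ratios from -0.09 (Trim71) to 0.15 (Lin28a) and were not called. No member was called at 2-fold or more, against 5.89% of all genes. None was called by edgeR's negative binomial exact test with the common dispersion of the pair, against 2.54% of all genes. That dispersion came from the same 2 libraries taken as 1 group, so it holds the differences under test. That no member was called there therefore says little. In the binomial test 4 members had an unadjusted p under 0.05, as did 8662 of the 18572 genes. Markers of several cell types differed between the libraries. Skeletal muscle markers were lower in replicate 2, as given above. All 8 granulocyte markers were called higher there (1833 TPM in sum in replicate 2, 1261 TPM in replicate 1), where the background is 19.9% of all genes. So were 7 of 8 macrophage markers (210 TPM, against 162 TPM) and 10 of 10 erythroid markers (2844 TPM, against 2430.3 TPM). Of 10 fetal hepatocyte markers 9 were called higher there and 1 lower. Of 9 stellate and mesenchymal markers 8 were called lower, where the background is 20.4%, and 1 higher. Their part in the members' differences was not tested. The median log2 ratio over the members was -0.02, and over all genes tested it was -0.0005.

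**Figure D5:**
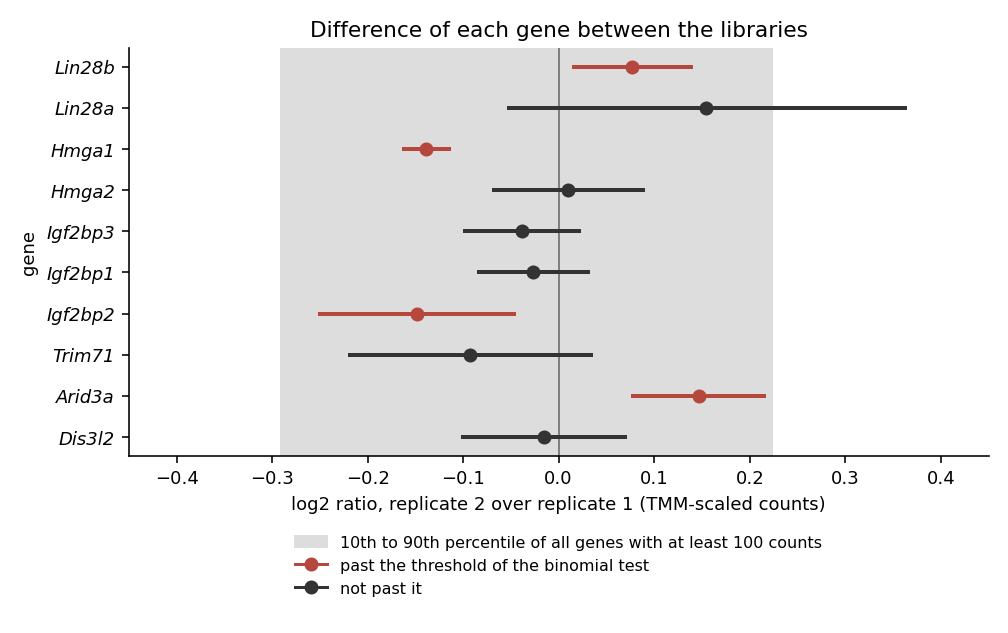
Points are log2 ratios of replicate 2 over replicate 1 on TMM-scaled counts, lines are 95% counting intervals, red marks members past the threshold of the exact binomial test, and the grey band spans the 10th to 90th percentile of genes with at least 100 counts (-0.29 to 0.22). All 10 points lie inside the band, and Hmga1 has the narrowest interval.

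The machinery that LIN28 proteins act on was present. Of 23 matched genes of let-7 processing and decay, 22 reached 1 TPM in both libraries, and the median was 11.6 ± 1.24 TPM. The highest were Hnrnpa1 (533 TPM in replicate 2 and 553 TPM in replicate 1), Dhx9 (61.3 and 56.6 TPM), Ddx3x (41.0 and 40.6 TPM) and Tarbp2, a partner of Dicer (42.0 and 38.7 TPM). The lowest was Ago4, an Argonaute gene, with 0.18 and 0.13 TPM. Between the libraries 9 were higher in replicate 2, where the background is 19.9% of all genes, 4 were lower, where it is 20.4%, and 10 did not pass the exact binomial test. Of the genes listed as microRNA hosts 4 were matched. Huwe1, which carries the let-7f and miR-98 hairpins of chromosome X in its introns, was the highest with 19.7 TPM in replicate 2 and 17.8 TPM in replicate 1, and Mir99ahg, which spans a let-7c hairpin, was the lowest with 0.27 and 0.34 TPM. Pank3 (4.60 and 4.01 TPM) and Rtl1 (0.89 and 0.98 TPM) are known for other microRNAs and are no let-7 hosts.

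Other textbook let-7 targets had a higher median level than the members. Of 32 genes, 29 reached 1 TPM in both libraries, with a median of 10.9 ± 1.60 TPM, against 5.45 TPM in replicate 2 and 4.75 TPM in replicate 1 for the median member. Rrm2, a ribonucleotide reductase subunit, had 157 TPM in replicate 2 and 123 TPM in replicate 1, followed by Nap1l1 (119 and 123 TPM), Cdc34 (97.2 and 91.5 TPM) and Aurkb (75.0 and 69.7 TPM), and Acvr1c was lowest at 0.01 TPM in each. In the same search 21 of these 32 held a seed match, with 8 in Nr6a1, against 7.32% of all genes scanned. They were listed as let-7 targets, so this follows from their choice, and 3′ UTRs of like length were not compared. Between the libraries 12 of 32 were higher in replicate 2 (background 19.9%), 6 were lower (background 20.4%) and 14 did not pass the exact binomial test.

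RNAs that IGF2BP proteins are known to bind, and their partners, were all at 1 TPM or more in both libraries (19 of 19). The imprinted RNA H19 had 2824 TPM in replicate 2 and 2900.2 TPM in replicate 1, and Igf2 had 894 and 857 TPM, against summed levels of Igf2bp1, Igf2bp2 and Igf2bp3 of 16.0 and 15.3 TPM. Actb, another bound mRNA, had 947 TPM in replicate 2 and 795 TPM in replicate 1, and Pabpc1 had 393 and 346 TPM. The lowest was Mettl14, part of the m6A writer, with 6.98 and 7.11 TPM. Of these 19 genes, 9 were higher in replicate 2 (background 19.9%), 9 were lower (background 20.4%) and 1 did not pass. Each of the 19 had at least 2016 counts in each library, and the test calls smaller differences where counts are higher. With only genes of at least 100 counts tested, 47.0% were called in either direction. The backgrounds beside the other gene and marker lists have the same limit.

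Among other high mobility group genes, Hmgn2 (272 TPM in replicate 2 and 269 TPM in replicate 1), Hmgb1 (240 and 216 TPM), Hmgb2 (213 and 233 TPM) and Hmgb3 (187 and 190.3 TPM) each stood above Hmga1, and Hmgb4 had 0 counts in both. Of the 11 tested, 8 were lower in replicate 2 (background 20.4%), none was higher (background 19.9%) and 3 did not pass the exact binomial test. All 13 matched exosome and exonuclease genes reached 1 TPM, from Exosc7 (79.2 and 78.7 TPM in replicate 2 and replicate 1) over the other core subunits Exosc8 (64.4 and 66.8 TPM), Exosc3 (31.7 and 33.8 TPM) and Exosc9 (30.9 and 26.5 TPM) to Xrn1 (3.55 and 3.34 TPM). The list of Arid relatives also holds Btk, a kinase that is no member of that family, and 11 of its 14 genes reached 1 TPM in both libraries. Kdm5c was the highest (17.6 TPM in replicate 2 and 19.6 TPM in replicate 1), followed by Btk (16.6 and 15.5 TPM), Arid1a (11.7 and 9.22 TPM) and Arid2 (8.98 and 7.53 TPM), and Arid3c had 0 counts in both.

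Of 12 other genes that the fetal liver shares with liver tumours, 10 reached 1 TPM in both libraries, led by Afp, H19, Dlk1 and Igf2. Afp had 7790 TPM in replicate 2 and 6698 TPM in replicate 1, and Dlk1 had 1107 and 938 TPM. Epcam, a marker of bile duct precursors and of other epithelia, was the lowest by mean TPM, although Aldh1a1 was lower than it in replicate 1 (0.49 TPM), and it was, marker lists apart, the one list gene called at 2-fold or more, with 0.30 TPM in replicate 2 and 0.63 TPM in replicate 1 (log2 ratio -1.23, exact binomial test, adjusted p = 8.94e-10). By edgeR's negative binomial exact test, which has the limit given above, Epcam was not called (adjusted p = 0.174). Epidermal markers, which mark another epithelium, together had 0.80 TPM (replicate 2) and 3.87 TPM (replicate 1), and their part in that difference was not tested.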

How the data were processed

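RNA sequencing values of 2 liver libraries, which form 1 group, were analysed. The expected count values were deposited by the authors per gene and transcript, estimated on mm10 with GENCODE M4 per the file headers and notes deposited beside them, with an aligner and quantifier not given in the sources used here. TPM and FPKM were deposited by the authors beside them, as was the percent of each transcript in its gene. The posterior SD of each count and the TPM credibility bounds are deposited score values, whose level is not stated. Junction reads were deposited as whole-number counts on mm9 for both replicates, checked to sum to the listed total for every junction. The mm9 gene RPKM was deposited for 2 replicates that are not named. Contig signal deposited by the authors was not used for any printed value.

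Symbols, types, positions and coding lengths came from GENCODE M21 by identifier. The 3′ UTRs scanned are those of M21, where 15921 of 21490 transcripts have the deposited length and the main ones of Hmga1 (1631 for 1593 bases) and Igf2bp3 (4345 for 4344 bases) do not. Shares were computed from TPM. Genes with at least 10 counts in total were compared by an exact binomial test (two-sided), conditional on each gene's sum of rounded counts, with TMM sizes from edgeR 4.0.16 and Benjamini-Hochberg adjustment at 0.05 over all of them. It was first run on simulated data with known changes. Those data held counting error only, so they do not show how the test behaves with the wider spread of these libraries. Alternatives were DESeq2 1.42.0 size factors, library totals, other filters, a negative binomial exact test, posterior mean TPM, a pseudocount of 0.1, mm9 values and each replicate left out. Junctions were matched to ENSEMBL introns within 2 bases, and competing junctions are given from 10 reads and 5% of a site. Share intervals are exact Clopper-Pearson intervals at 95%. Software was Python 3.11.15 with scipy 1.17.1, pandas 2.3.3, numpy 2.4.6 and matplotlib 3.10.9, and R 4.3.3.

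Members and gene lists were chosen with earlier results of these data known. Named were all members, genes whose symbol begins as theirs do, and of each pathway list the 4 highest genes, the lowest and any that differed 2-fold; the remaining genes named (overlapping genes, marker genes, Nr6a1) were chosen after their values were seen, as were the splice choices described. Of the listed symbols, 3 in let-7 processing, 5 in the microRNA host list and 1 in the exosome list had no match, some being older names.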

Additional observations from a re-analysis of the deposited data

How the results depend on the processing

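No paired analysis was possible because the series has 1 group. Leaving out replicate 1 or replicate 2 gave log2 ratios of 2.17 to 2.34 for Lin28b over Lin28a, 4.77 to 4.90 for Hmga1 over Hmga2, 0.68 to 0.76 for Igf2bp3 over Igf2bp1 and 1.09 to 1.13 for Igf2bp3 over Igf2bp2. In mm9 RPKM these ratios were 3.89, 3.51, -0.17 (the one change of direction) and 0.49. In reads per annotated mm9 intron they were 2.54, 2.74, 0.67 and 2.00. With posterior mean TPM, Igf2bp3 over Igf2bp2 was 1.06. The cause was not tested. The count of members at the level threshold fell to 4 at 5 TPM and was 7 to 10 under the other settings. The negative binomial test called 471 genes and 0 members, and a 2-fold minimum left 1094 genes and 0 members, where the construction of each asks for more than counting error. The median main transcript share was 83.7% of TPM, 82.1 to 85.4% with a replicate left out and 96.7% of expected counts. Seed matches of 6 or 8 bases were present in 9 and 8 members.

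As unscaled TPM ratios of replicate 2 over replicate 1 (log2), Hmga1 (0.021), Igf2bp1 (0.0189), Igf2bp2 (0.0576), Igf2bp3 (0.103), Trim71 (0.0559) and Dis3l2 (0.1235) turned positive. With library totals Igf2bp1 (0.0292), Igf2bp3 (0.0171) and Dis3l2 (0.0402) did so, none of them called. The remaining 41 recomputed ratios of single members kept their direction. Those under the filters of at least 1 count and at least 100 counts repeat the main value by construction, so they could not change. With 301 to 535 counts, Lin28a is the member that depth limits most, and low junction counts give its splice choices wide intervals.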
